A study of Mus musculus with 21 samples.

Results

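The cullin ligase genes described here are the protein-coding rows of the count table whose mouse symbol begins with Fbxl, Fbxw or Fbxo (F-box), Asb, Klhl or Cul followed by a digit, leaving out Fbxo32, Fbxo30, Fbxo31, Fbxo21 and Fbxo40. Of 46071 genes in the table, 134 met this rule: 8 cullins, 72 F-box genes (18 Fbxl, 23 Fbxw and 31 Fbxo), 18 Asb genes and 36 Klhl genes. A cullin is the scaffold of a ubiquitin ligase: its one end holds a RING protein that brings the ubiquitin-conjugating enzyme, and its other end holds a receptor that picks the substrate. F-box proteins dock on Cul1 through Skp1, Asb proteins carry a SOCS box that docks on Cul5 through the elongins, and Klhl proteins bind Cul3 directly through a BTB domain and the substrate through Kelch repeats. In muscle, several of these receptors are known for turnover or stabilisation of sarcomere proteins, and FoxO factors are known as activators of ubiquitin ligases of muscle wasting such as Fbxo32.

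RNA was sequenced from pooled powder of quadriceps and gastrocnemius muscle in 21 libraries of a 2-factor design. The groups were 6 libraries of STZ TKO, 5 of STZ floxed, 6 of TKO and 4 of floxed mice. All mice carried floxed Foxo1, Foxo3 and Foxo4 alleles on a mixed C57Blk6, C57Blk6J and 129 background, and controls were littermates. TKO mice also carried ACTA1-Cre, whose skeletal actin promoter acts in muscle fibres, so that other cells of the muscle keep their FoxO genes. STZ (streptozotocin, which kills the beta cells that make insulin) was injected into fasted mice at 150 mg/kg, females receiving a further 75 mg/kg on day 3, and STZ mice were kept where random blood glucose stayed above 300 mg/dL. The design text gives citrate buffer as the control injection. The labels give neither age nor sex for a library, and they do not say whether each library is a separate animal, so that p-values measure the spread between libraries, which may be technical in part.

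Libraries held 2951290 to 7687823 counts (median 5665819) and are named here by their title numbers. Values are given as CPM, counts per 1000000 of the library size adjusted for composition (TMM), and a gene was called where its Benjamini-Hochberg adjusted p in edgeR's quasi-likelihood test over 12658 genes was below 0.05. Of the targeted genes, Foxo4 lay at 5.34 to 12.6 CPM in STZ TKO, 182 to 201 in STZ floxed, 3.87 to 8.25 in TKO and 124 to 195 in floxed libraries. Foxo1 lay at 10.9 to 26.6 CPM in STZ TKO, 36.3 to 85.9 in STZ floxed, 6.99 to 17.7 in TKO and 46.7 to 112 in floxed libraries. Foxo3 lay at 73.8 to 232 CPM in STZ TKO, 79.6 to 114 in STZ floxed, 73.4 to 121 in TKO and 63.9 to 89.2 in floxed libraries. As the counts cover whole genes, including exons outside a deletion, those of Foxo3 do not check its loss. All 10 skeletal fibre markers were detected in each group and none was called in a contrast. Their sums ran from 97544 to 171986 CPM in STZ TKO and 51589 to 200904 in STZ floxed libraries. Without STZ these sums ran from 81174 to 206198 CPM in TKO and 145663 to 220067 in floxed libraries. Their median log2 fold change with STZ was -0.63 in floxed and -0.25 in knockout muscle. For the knockout it was -0.26 without STZ and 0.15 under STZ. Single libraries stood apart in several groups. Of the 97 tested members, library 17 held the highest of the 5 STZ floxed values for 36 and the lowest for 33, library 20 the highest of the 6 TKO values for 24 and the lowest for 34, and library 6 the lowest TKO value for 36. Macrophage markers summed to 306 to 2488 CPM in STZ TKO, 215 to 317 in STZ floxed, 323 to 1979 in TKO and 186 to 255 in floxed libraries. Their mean log2 level about the average of all libraries was highest in libraries 4, 15, 16 and 20, all of them knockouts. No gap followed: it was 1.05 in library 16, 1.03 in library 6 of TKO and 0.858 in library 8 of STZ TKO. In whole-muscle RNA, fewer cells of a type and less RNA per cell cannot be told apart.

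The promoters of the 4 members with the lowest p in STZ TKO against STZ floxed muscle are shown because the knockout removes transcription factors with a known DNA core motif. Each run is a RefSeq promoter (GRCm38.p6) of 300 bases, 250 before and 50 after the start, and capitals mark the motifs searched. Fbxl4 lies at chr4:22357293-22357592 (plus strand), Klhl33 at chr14:50897434-50897733 (minus strand, 1 of 2 starts listed), Asb16 at chr11:102268501-102268800 (plus strand) and Klhl21 at chr4:152008641-152008940 (plus strand).
Fbxl4: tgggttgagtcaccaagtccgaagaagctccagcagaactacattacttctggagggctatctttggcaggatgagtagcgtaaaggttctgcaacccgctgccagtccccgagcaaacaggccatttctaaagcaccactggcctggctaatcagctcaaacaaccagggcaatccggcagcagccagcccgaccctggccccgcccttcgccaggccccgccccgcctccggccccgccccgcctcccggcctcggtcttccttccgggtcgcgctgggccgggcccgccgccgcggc
Klhl33: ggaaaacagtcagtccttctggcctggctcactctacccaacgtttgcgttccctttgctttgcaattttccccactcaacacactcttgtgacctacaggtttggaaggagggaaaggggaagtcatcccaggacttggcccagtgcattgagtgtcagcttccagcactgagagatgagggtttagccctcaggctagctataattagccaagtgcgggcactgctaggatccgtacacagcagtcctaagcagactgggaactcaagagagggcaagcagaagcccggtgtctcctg
Asb16: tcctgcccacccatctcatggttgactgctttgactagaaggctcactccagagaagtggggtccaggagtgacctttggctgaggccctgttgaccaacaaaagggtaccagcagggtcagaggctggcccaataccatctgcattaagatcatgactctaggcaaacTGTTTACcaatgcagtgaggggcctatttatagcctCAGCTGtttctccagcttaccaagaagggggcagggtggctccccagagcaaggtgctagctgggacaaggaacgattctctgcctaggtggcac
Klhl21: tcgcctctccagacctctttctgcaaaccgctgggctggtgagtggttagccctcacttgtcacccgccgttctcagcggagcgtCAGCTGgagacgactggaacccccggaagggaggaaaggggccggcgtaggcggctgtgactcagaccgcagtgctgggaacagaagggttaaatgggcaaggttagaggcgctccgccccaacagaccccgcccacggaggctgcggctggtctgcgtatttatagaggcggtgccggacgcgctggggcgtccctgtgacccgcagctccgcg
The FoxO core motif was searched as GTAAACA and its reverse complement TGTTTAC, on both strands. It was present in 1199 of 32851 RefSeq promoters (3.65%), and in 3 of the 146 promoters of the 108 members with an entry: those of Asb16, Asb18 and Cul7. In Asb16 it began 81 bases before the start. The E-box CAGCTG reads the same on both strands, shares no base with the FoxO match shown and was added after values were seen. It was present in 5355 of 32851 promoters (16.3%) and in 40 of the 146 member promoters, which belong to 37 members. These include untested Fbxw genes without any counts, such as Fbxw14, Fbxw19 and Fbxw21. The E-box began 45 bases before the start in Asb16 and 165 bases before it in Klhl21. Of the 15 members called lower in the knockouts below, 11 had an entry: the FoxO core was present in 1 of these and the E-box in 4 (Asb16, Asb5, Klhl21 and Klhl34). These are matches of letters within 1 window and not measured binding sites.

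Levels between genes were compared as CPM per kilobase of exon, averaged over the 21 libraries. The Klhl and Asb families held the most abundant members. Klhl41, a sarcomere-associated Kelch protein whose loss causes nemaline myopathy, stood first with 378 ± 55.2 CPM per kilobase (SD, n = 21). Asb2, which acts on filamins and desmin, followed with 226 ± 74.5, then Asb5 with 140 ± 55.6, Klhl40, a stabiliser of nebulin and Lmod3, with 105 ± 66.3, Klhl31, a muscle Kelch protein that regulates filamin C, with 101 ± 44.0, and Asb11 with 92.6 ± 55.1. From Asb5 to Asb11 the neighbours in this order lay within 1 SD of each other. Among cullins Cul3, the scaffold of the Klhl receptors, was highest with 84.7 ± 19.2, against 28.3 ± 8.86 for Cul1 and 20.4 ± 4.70 for Cul5. The F-box genes within the rule reached at most 30.2 ± 6.01 (Fbxw5), followed by Fbxw11 with 26.6 ± 4.36 and Fbxo9 with 20.3 ± 4.50. Fbxo32, which the rule leaves out, stood at 150 ± 179.

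**Figure D1:**
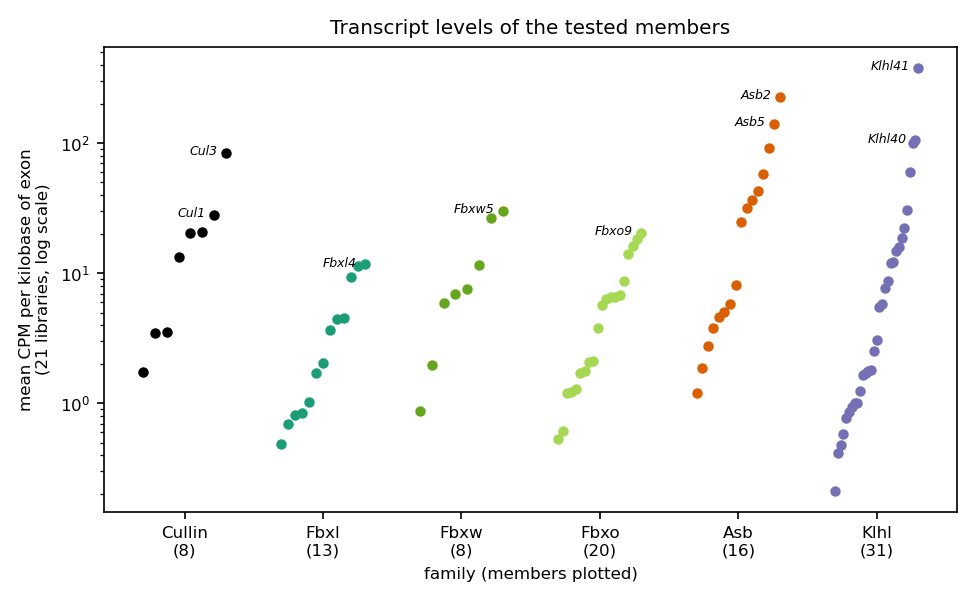
Transcript level of 96 of the 97 tested members, as mean CPM per kilobase of exon over the 21 libraries on a log axis, with 1 point per gene and genes ordered by level within each family. Klhl41 (378) and Asb2 (226) lie highest, and no F-box gene plotted exceeds 30.2.

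Summed levels of the families, in which the abundant members weigh most, are given as a description. Klhl genes summed to 2603 ± 315 CPM in STZ TKO (SD, n = 6), 3493 ± 365 in STZ floxed (n = 5), 2598 ± 419 in TKO (n = 6) and 3342 ± 219 in floxed muscle (n = 4). Asb genes summed to 1801 ± 366 CPM in STZ TKO, 2374 ± 414 in STZ floxed, 1766 ± 458 in TKO and 2403 ± 388 in floxed muscle. Fbxo genes summed to 550 ± 47.7 CPM in STZ TKO, 566 ± 24.0 in STZ floxed, 506 ± 63.0 in TKO and 584 ± 51.0 in floxed muscle. Cullins summed to 1001 ± 184 CPM in STZ TKO, 1080 ± 142 in STZ floxed, 814 ± 138 in TKO and 930 ± 113 in floxed muscle. Fbxl genes summed to 401 ± 37.2 CPM in STZ TKO, 458 ± 37.8 in STZ floxed, 362 ± 44.1 in TKO and 420 ± 35.6 in floxed muscle. Fbxw genes summed to 433 ± 32.3 CPM in STZ TKO, 457 ± 28.8 in STZ floxed, 417 ± 41.4 in TKO and 449 ± 7.5 in floxed muscle. The sums of all 6 families had lower means in both knockout groups than in the matching floxed groups, and no test was run on the sums.

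Of the 134 members, 97 passed the filter on low counts and were tested: all 8 cullins, 14 Fbxl, 8 Fbxw, 20 Fbxo, 16 Asb and 31 Klhl genes. The other 37 had at most 17 counts in a library, and 6 of them, all Fbxw genes, had no counts in any library.

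In STZ TKO against STZ floxed muscle, 9 of the 97 tested members were called (9.28%), against 4.89% of all genes tested. Lower were 7 members, or 7.22% against 2.42% of all genes, and higher were 2, or 2.06% against 2.47%. The lowered ones were Klhl33, Klhl38, Asb4, Asb16, Fbxl4, Klhl21 and Klhl8, and the raised ones Klhl23 and Klhl29. Without STZ, in TKO against floxed muscle, 1 member was called (1.03%, against 0.514% of all genes): Fbxl4 was lower, as were 0.363% of all genes. Averaged over both STZ states, the knockout changed 18 members (18.6%, against 9.8% of all genes), 15 lower (15.5% against 4.23%) and 3 higher (3.09% against 5.57%). The average joins all 21 libraries. Among the lowered members it adds are Asb14, Klhl31, Asb5, Klhl34, Klhl24, Klhl7 and Fbxo9, and the raised ones it adds are Fbxl22 and Fbxl2, while Klhl29 was not called there. DESeq2 called 11 members under STZ, the same 9 with Klhl40 and Asb11 (11.3%, against 7.99% of all genes), and 7 without STZ (7.22%, against 2.78%): Fbxl4, Klhl7, Asb4, Asb5, Klhl33 and Klhl34 lower and Fbxl22 higher. The median log2 fold change over the 97 members was -0.10 in the average, with 67.0% negative, against 0.02 and 47.3% over all genes tested.

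**Figure D2:**
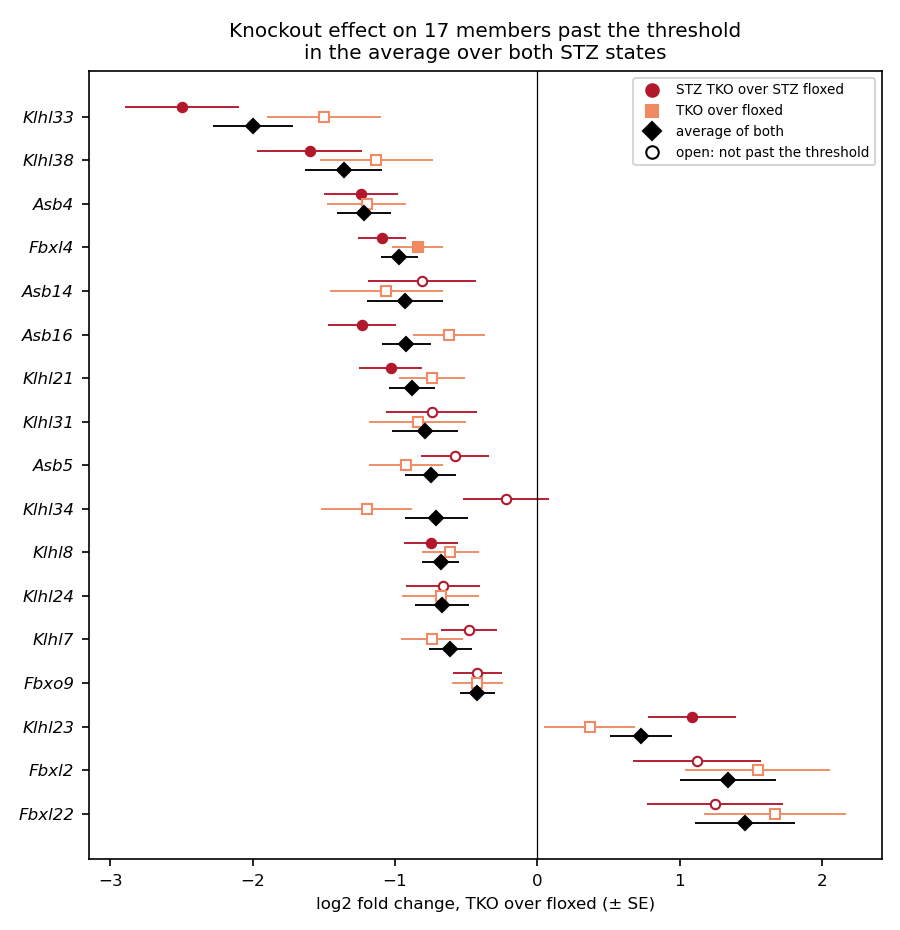
Log2 fold change, TKO over floxed, of 17 of the 18 members past the threshold in the average of both STZ states (bars, SE), shown for STZ TKO over STZ floxed, TKO over floxed and their average, with open symbols for values not past the threshold. Klhl33 lies lowest in the average (-2.0) and Fbxl22 highest (1.46), and each of the 17 has the same sign in both STZ states.

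**Figure D3:**
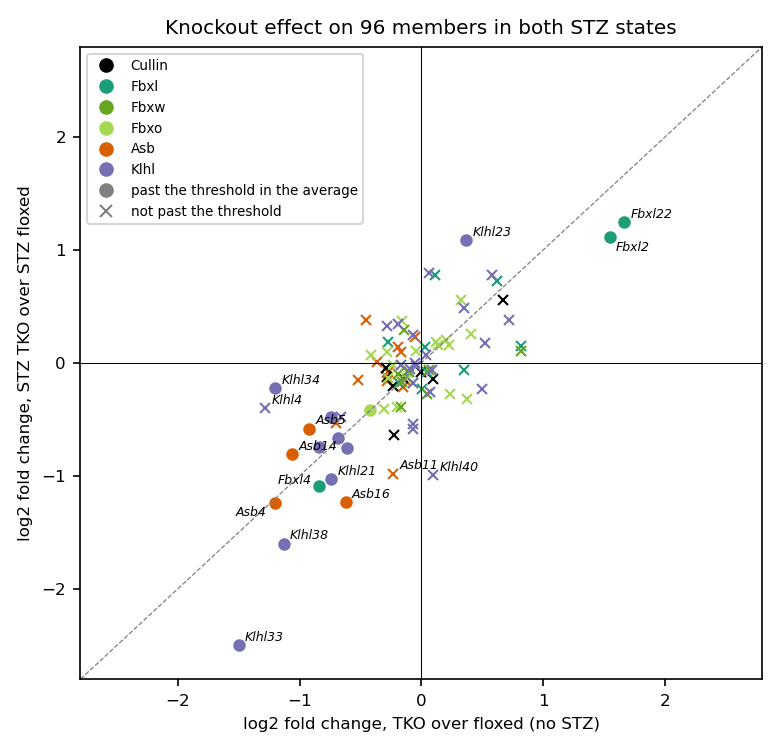
Log2 fold change of 96 of the 97 tested members, TKO over floxed without STZ (horizontal) against STZ TKO over STZ floxed (vertical), colored by family, with circles for members past the threshold in the average and crosses for the rest. No cullin is a circle, and the lowered receptors lie in the lower left, with Klhl33 farthest out at -1.50 and -2.50.

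None of the 8 cullins was called in any contrast in the fit reported here. Their log2 fold changes in the averaged knockout effect ran from -0.43 (Cul4b) to 0.62 (Cul7), with adjusted p of 0.148 or more, and 1 of 8 had an unadjusted p under 0.05, against 22.7% of all genes. With the run of library codes as a block, Cul4b was called lower in the average (adjusted p = 0.04). Cul3 ran from 259 to 525 CPM in STZ TKO (median 490), with 388, 427, 487, 519 and 569 in STZ floxed, from 206 to 412 in TKO (median 355), and 350, 379, 449 and 450 in floxed libraries. All 4 groups overlapped. Cul5, the scaffold of the Asb receptors, averaged 173 ± 50.4 CPM in STZ TKO, 177 ± 5.62 in STZ floxed, 144 ± 40.9 in TKO and 176 ± 35.8 in floxed muscle. Cul1, the scaffold of the F-box receptors, averaged 126 ± 34.1 CPM in STZ TKO, 139 ± 50.7 in STZ floxed, 91.1 ± 16.2 in TKO and 101 ± 13.0 in floxed muscle. Cul2, which carries the Vhl receptor, averaged 57.4 ± 11.9 CPM in STZ TKO, 66.1 ± 10.6 in STZ floxed, 48.0 ± 7.56 in TKO and 56.5 ± 12.2 in floxed muscle. For these 3 scaffolds the ranges of the groups overlapped in each comparison. Cul4a, one of a pair of scaffolds that use Ddb1 and its Dcaf receptors, averaged 137 ± 24.8 CPM in STZ TKO, 145 ± 32.7 in STZ floxed, 125 ± 21.3 in TKO and 126 ± 9.39 in floxed muscle. Cul4b, the other of that pair, averaged 12.5 ± 2.50 CPM in STZ TKO, 19.5 ± 8.05 in STZ floxed, 10.2 ± 3.05 in TKO and 12.1 ± 2.87 in floxed muscle, and library 17 of STZ floxed held 33.2. Cul7, which joins Fbxw8 in a ligase known to act on Irs1, averaged 13.4 ± 8.95 CPM in STZ TKO, 9.02 ± 2.54 in STZ floxed, 17.1 ± 12.6 in TKO and 10.8 ± 1.73 in floxed muscle. Its wide spread in TKO came with 1 library, number 20, at 40.9 CPM. Cul9, a large cullin that binds p53, averaged 41.8 ± 11.6 CPM in STZ TKO, 46.1 ± 6.75 in STZ floxed, 43.5 ± 8.87 in TKO and 40.5 ± 6.99 in floxed muscle.

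Among 42 tested F-box genes, Fbxl4 was the one called in both genotype comparisons. Fbxl4 (chromosome 4, 22357543 to 22434091, GRCm38) encodes a mitochondrial F-box protein that restrains mitophagy, and its loss in humans causes mitochondrial DNA depletion. It ran from 21.4 to 39.3 CPM in STZ TKO libraries (median 36.7), against 60.0, 64.2, 66, 76.6 and 87.2 in STZ floxed ones. In TKO libraries it ran from 21.7 to 32.6 CPM (median 30.2), against 43.8, 50.3, 50.6 and 60.3 in floxed ones. Each of the 12 knockout libraries lay below each of the 9 floxed libraries. The log2 fold change was -1.09 ± 0.17 under STZ (SE; adjusted p = 0.000457), -0.84 ± 0.18 without STZ (adjusted p = 0.0331) and -0.97 ± 0.13 averaged (adjusted p = 2.62e-05). Under STZ the call held without any 1 library. Without STZ it was lost without library 2, 3, 5, 6, 9, 10, 19 or 20, with an adjusted p of up to 0.167.

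Fbxo9 was called in the average alone, toward lower values. Fbxo9, known to act on the mTOR-stabilising proteins Tti1 and Tel2, ran from 38.1 to 59.5 CPM in STZ TKO (median 52.9), against 46.4, 65.0, 69.7, 79.8 and 85.6 in STZ floxed, and from 47.0 to 74.9 in TKO (median 57.1), against 73.7, 75.0, 79.8 and 86.2 in floxed libraries. The genotypes overlapped in both STZ states. Its averaged change of -0.42 ± 0.12 (adjusted p = 0.0271) was lost without library 1, 3, 5 or 7 (adjusted p up to 0.0693).

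Fbxl22 and Fbxl2 were higher in knockouts, again in the average alone, and both were scarce. Fbxl22, a Z-disc F-box protein that acts on alpha-actinin and filamin C, ran from 1.70 to 11.6 CPM in STZ TKO (median 5.81), against 1.29, 2.46, 2.77, 3.26 and 3.35 in STZ floxed, and from 6.48 to 31.4 in TKO (median 11.3), against 2.92, 4.82, 5.14 and 7.78 in floxed libraries. The genotypes overlapped in both STZ states, and 2 TKO libraries, 6 and 20, held 29.0 and 31.4. Its averaged log2 fold change was 1.46 ± 0.35 (adjusted p = 0.00877). It shares 317 exon bases with Herc1 on the opposite strand, and reads of such pairs may be mixed where counting ignored the strand. Fbxl2 ran from 1.45 to 6.15 CPM in STZ TKO (median 2.47), against 1.09, 1.30, 1.31, 1.54 and 1.62 in STZ floxed, and from 1.56 to 7.52 in TKO (median 1.91), against 0.536, 0.834, 1.03 and 1.53 in floxed libraries. The groups without STZ were separate, and library 20 held the highest value. Its averaged change was 1.34 ± 0.34 (adjusted p = 0.0145), and it was 1.04 to 1.5 with any 1 library left out. It shares 496 exon bases with the antisense gene Ubp1.

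The remaining F-box genes were not called in a genotype comparison. None of the 8 tested Fbxw genes was called, with averaged log2 fold changes of -0.28 to 0.47. Fbxw7, the receptor of cyclin E, Myc and Notch, averaged 50.6 ± 12.0 CPM in STZ TKO, 41.5 ± 11.8 in STZ floxed, 49.0 ± 12.5 in TKO and 54.1 ± 12.4 in floxed muscle. Fbxw5, which can serve Cul4 as well as Cul1, averaged 82.6 ± 17.2 CPM in STZ TKO, 88.9 ± 16.9 in STZ floxed, 94.1 ± 18.8 in TKO and 107 ± 16.4 in floxed muscle. Fbxw11, a receptor of beta-catenin and I-kappa-B, averaged 115 ± 13.0 CPM in STZ TKO, 130 ± 23.0 in STZ floxed, 103 ± 18.1 in TKO and 115 ± 14.1 in floxed muscle. In each of these 3 genes the groups overlapped. Fbxw9 averaged 6.69 ± 2.56 CPM in STZ TKO, 6.17 ± 1.53 in STZ floxed, 8.28 ± 2.74 in TKO and 4.74 ± 1.23 in floxed muscle, with 4 of 6 TKO libraries above the highest floxed one. Among 20 tested Fbxo genes the averaged changes ran from -0.42 (Fbxo9) to 0.44. For scale, Fbxo32 (atrogin-1), which the rule leaves out, had an averaged change of -1.34 ± 0.37 (adjusted p = 0.0221).

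Several Asb genes were lower in knockout muscle. Of 16 tested, 2 were called lower under STZ, none without STZ and 4 in the average, and none was called higher. Of all genes tested, 2.42% were called lower under STZ, 0.363% without STZ and 4.23% in the average. At an unadjusted p under 0.05 without STZ were 4 of the 16, a larger share than the 11.5% of all genes. Without STZ all 16 log2 fold changes were negative (median -0.32), under STZ 11 (median -0.16), and in the average 15 (median -0.20). Over all genes tested the medians were 0.00, 0.03 and 0.02.

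Asb4 and Asb16 were lower under STZ. Asb4 (chromosome 6, 5383386 to 5433022), a receptor hydroxylated by the oxygen sensor FIH and known from vascular differentiation, ran from 8.23 to 21.1 CPM in STZ TKO (median 13.1), against 24.5, 28.7, 35.9, 40.5 and 43.4 in STZ floxed libraries. In TKO libraries it ran from 4.34 to 15.0 CPM (median 10.9), against 21.8, 22.1, 24.6 and 27.5 in floxed ones. The genotypes did not overlap in either STZ state. The log2 fold change was -1.24 ± 0.26 under STZ (adjusted p = 0.00686) and -1.22 ± 0.19 averaged (adjusted p = 0.000289); without STZ it was -1.20 ± 0.28 and missed the threshold (adjusted p = 0.0556), which DESeq2 passed (0.00897). Asb16 (chromosome 11, 102268743 to 102279462), whose promoter shown above holds the FoxO core, ran from 57.0 to 148 CPM in STZ TKO (median 104), against 157, 218, 244, 255 and 275 in STZ floxed libraries. In TKO libraries it ran from 77.0 to 187 CPM (median 145), against 188, 203, 223 and 247 in floxed ones. Both pairs of groups were separate, by narrow gaps. The changes were -1.23 ± 0.24 under STZ (adjusted p = 0.00321) and -0.92 ± 0.17 averaged (adjusted p = 0.0012). Both genes kept these calls without any 1 library.

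Asb5 and Asb14 passed in the average alone. Asb5, abundant in muscle, ran from 159 to 399 CPM in STZ TKO (median 244), against 267, 327, 358, 395 and 486 in STZ floxed, and from 73.4 to 198 in TKO (median 168), against 238, 290, 301 and 342 in floxed libraries. The groups without STZ were separate and those under STZ overlapped. The averaged change was -0.75 ± 0.18 (adjusted p = 0.00802), and 75 of its exon bases overlap Spcs3 on the other strand. Asb14 ran from 28.1 to 72.3 CPM in STZ TKO (median 34.7), against 35.5, 83.0, 84.2, 84.5 and 104 in STZ floxed, and from 8.83 to 70.2 in TKO (median 53.7), against 80.5, 98.3, 98.7 and 109 in floxed libraries. Here too the groups without STZ were separate and those under STZ overlapped. Its averaged change of -0.93 ± 0.27 (adjusted p = 0.0316) was lost without library 1, 3, 4, 5, 6, 7, 9, 15 or 21 (adjusted p up to 0.0672).

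Other muscle Asb genes were not called. Asb2 ran from 491 to 964 CPM in STZ TKO (median 813), with 308, 564, 788, 835 and 1270 in STZ floxed, from 399 to 1009 in TKO (median 769), and 739, 874, 926 and 1387 in floxed libraries. The 4 groups overlapped, and the widest spread was within STZ floxed. Asb15, known from rodents to affect muscle growth, averaged 113 ± 30.8 CPM in STZ TKO, 131 ± 47.3 in STZ floxed, 160 ± 61.6 in TKO and 177 ± 50.9 in floxed muscle. Asb10 averaged 74.6 ± 23.1 CPM in STZ TKO, 82.7 ± 48.9 in STZ floxed, 110 ± 43.3 in TKO and 157 ± 24.4 in floxed muscle. In both genes the genotypes overlapped in each STZ state.

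The Klhl genes held both the lowest knockout change of the tested members (Klhl33) and 6 of the 9 calls under STZ. Klhl genes made up 31 of the 97 tested members. Of these 31, 4 were lower and 2 higher under STZ, none was called without STZ, and 8 were lower and 1 higher in the average. Of all genes tested, 2.42% were lower and 2.47% higher under STZ, and 4.23% lower and 5.57% higher in the average. Without STZ, 10 of the 31 had an unadjusted p under 0.05, a larger share than the 11.5% of all genes. Klhl33 (chromosome 14, 50888582 to 50897507) ran from 5.16 to 18.6 CPM in STZ TKO libraries (median 14.8), against 21.6, 71.4, 79.5, 89.9 and 107 in STZ floxed ones. In TKO libraries it ran from 14.3 to 58.0 CPM (median 29.2), against 71.5, 78.4, 99.5 and 121 in floxed ones. The genotypes did not overlap in either state, and the lowest STZ floxed value belonged to library 17. Its log2 fold change was -2.50 ± 0.40 under STZ (adjusted p = 0.000567) and -2.0 ± 0.28 averaged (adjusted p = 8.3e-05); without STZ it was -1.50 ± 0.40 (adjusted p = 0.0895, and 0.0182 in DESeq2). The calls under STZ and in the average held without any 1 library and in all 7 other settings tried.

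Klhl38 (chromosome 15, 58314573 to 58324169) ran from 10.7 to 25.7 CPM in STZ TKO (median 18.8), against 36.1, 41.2, 50.1, 65.9 and 74.0 in STZ floxed, and from 4.05 to 20.5 in TKO (median 13.8), against 11.1, 18.9, 29.2 and 57.5 in floxed libraries. The groups under STZ were separate and those without STZ overlapped. The changes were -1.60 ± 0.37 under STZ (adjusted p = 0.0126) and -1.36 ± 0.27 averaged (adjusted p = 0.00222). Of its 2212 exon bases, 1446 overlap the antisense gene Gm15943, which was itself lower in STZ TKO, at 1.36 to 6.62 CPM against 6.22 to 17.9 in STZ floxed libraries (-2.25 ± 0.41, adjusted p = 0.0018). Reads of this pair, too, may be mixed.

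Klhl21 and Klhl8 were the other lowered Kelch genes under STZ. Klhl21 (chromosome 4, 152008803 to 152017680), a Cul3 receptor for Aurora B in dividing cells, ran from 135 to 195 CPM in STZ TKO (median 173), against 271, 284, 311, 385 and 468 in STZ floxed, and from 90.1 to 242 in TKO (median 181), against 219, 304, 306 and 386 in floxed libraries. The separation was complete under STZ and not without it. The changes were -1.03 ± 0.22 under STZ (adjusted p = 0.00604) and -0.88 ± 0.16 averaged (adjusted p = 0.000801). It shares 817 exon bases with the antisense gene model Gm9768. Klhl8 (chromosome 5, 103861973 to 103911259), whose Caenorhabditis elegans relative acts on rapsyn, a protein that clusters acetylcholine receptors, ran from 29.5 to 51.5 CPM in STZ TKO (median 44.7), against 56.2, 67.9, 70.8, 71.1 and 91.8 in STZ floxed, and from 30.5 to 57.1 in TKO (median 45.6), against 59.5, 68.6, 73.9 and 76.8 in floxed libraries. All knockout libraries lay below all floxed libraries of the same STZ state. Its changes were -0.75 ± 0.19 under STZ (adjusted p = 0.0199, and 0.0676 without library 7) and -0.68 ± 0.13 averaged (adjusted p = 0.00225).

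**Figure D4:**
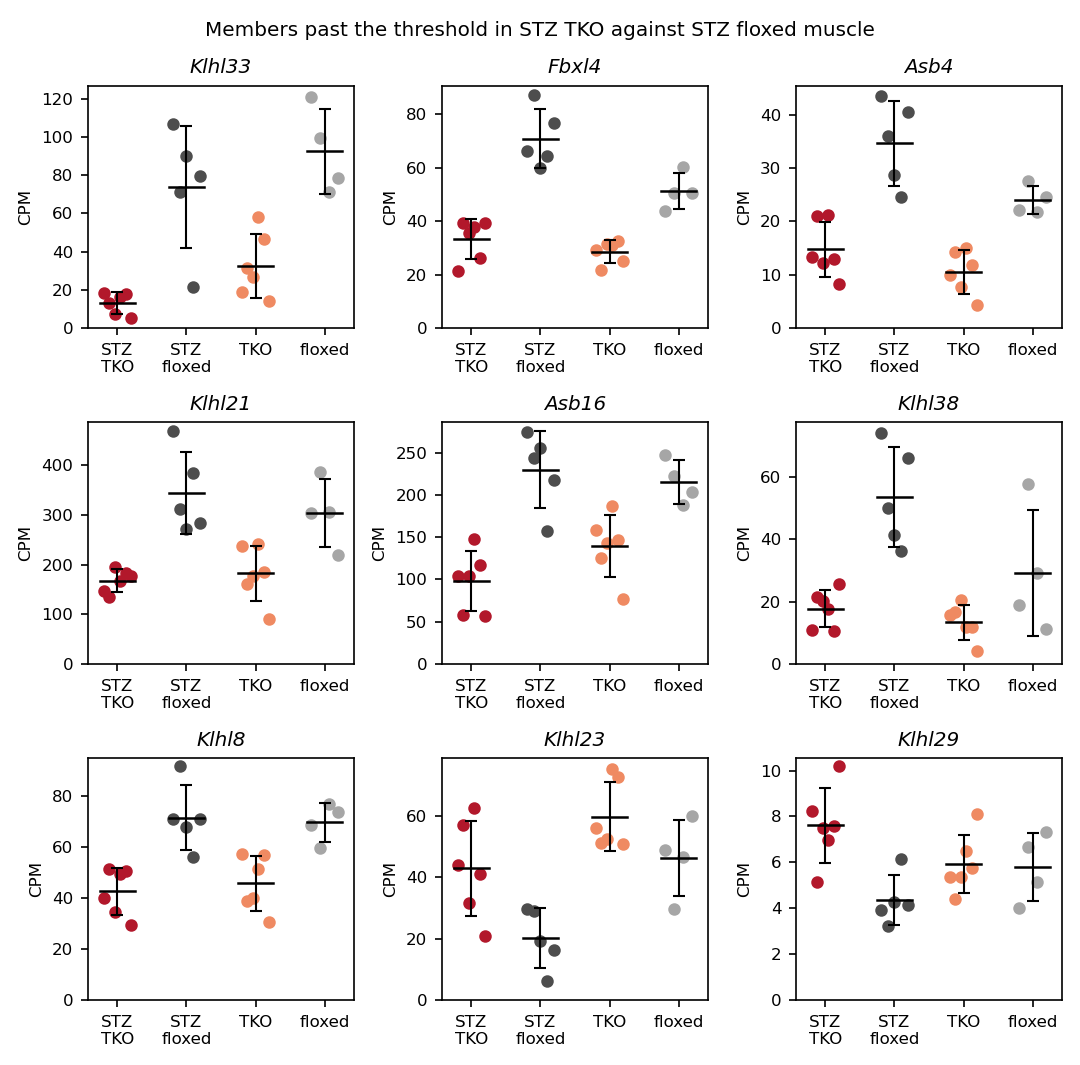
CPM of the 9 members past the threshold in STZ TKO against STZ floxed muscle, 1 point per library in each of the 4 groups, with bars for mean ± SD. For Klhl33, Fbxl4, Asb4, Asb16 and Klhl8 the knockout points lie below the floxed points both with and without STZ, and for Klhl23 and Klhl29 the STZ floxed points lie low.

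Another 4 Kelch genes were lower in the average alone. Klhl31 ran from 219 to 806 CPM in STZ TKO (median 420), against 320, 813, 838, 880 and 907 in STZ floxed, and from 368 to 826 in TKO (median 470), against 815, 900, 1078 and 1197 in floxed libraries. The value of 320 belonged to library 17, and 2 TKO libraries, at 825 and 826, overlapped the floxed range. Its averaged change of -0.79 ± 0.23 (adjusted p = 0.0295) was lost without library 1, 3, 6, 7, 10, 19, 20 or 21 (adjusted p up to 0.0668). Klhl7, in which mutations cause retinitis pigmentosa, ran from 54.2 to 103 CPM in STZ TKO (median 91.1), against 96.4, 116, 121, 125 and 132 in STZ floxed, and from 34.6 to 82.7 in TKO (median 62.3), against 85.6, 89.5, 105 and 116 in floxed libraries. It separated the genotypes without STZ and overlapped under STZ, with an averaged change of -0.61 ± 0.15 (adjusted p = 0.0108). Klhl24, known from keratin turnover in skin and from an inherited cardiomyopathy, ran from 117 to 273 CPM in STZ TKO (median 167), against 212, 223, 275, 291 and 390 in STZ floxed, and from 47.1 to 169 in TKO (median 141), against 172, 175, 223 and 229 in floxed libraries. The groups without STZ were separate by a narrow gap and those under STZ overlapped. Its averaged change of -0.67 ± 0.19 (adjusted p = 0.025) was lost without library 9 or 19 (adjusted p up to 0.0572). Klhl34 ran from 4.54 to 15.3 CPM in STZ TKO (median 11.7), against 8.46, 9.37, 11.2, 14.8 and 17.0 in STZ floxed, and from 4.48 to 10.2 in TKO (median 7.67), against 12.0, 15.4, 16.8 and 22.5 in floxed libraries. The groups under STZ overlapped, and those without STZ were separate (-1.20 ± 0.32, adjusted p = 0.0895, and 0.0241 in DESeq2). The averaged change of -0.71 ± 0.22 (adjusted p = 0.0402) was lost without library 1, 3, 5, 13, 14, 15, 16, 19 or 20 (adjusted p up to 0.112).

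Klhl23 and Klhl29 were higher in STZ TKO muscle. Klhl23 (chromosome 2, 69821944 to 69836651) ran from 20.7 to 62.6 CPM in STZ TKO (median 42.5), against 6.35, 16.3, 19.3, 29.1 and 29.6 in STZ floxed, and from 50.8 to 75.3 in TKO (median 54.1), against 29.7, 46.4, 48.9 and 59.8 in floxed libraries. STZ floxed libraries lay lowest, with 1 STZ TKO library among them, and the lowest value belonged to library 17. Its changes were 1.09 ± 0.31 under STZ (adjusted p = 0.0419) and 0.73 ± 0.22 averaged (adjusted p = 0.0396). Klhl29 (chromosome 12, 5077472 to 5375682) ran from 5.15 to 10.2 CPM in STZ TKO (median 7.54), against 3.23, 3.93, 4.15, 4.28 and 6.16 in STZ floxed, and from 4.41 to 8.10 in TKO (median 5.58), against 4.03, 5.16, 6.67 and 7.32 in floxed libraries. One STZ floxed library, number 17, reached into the STZ TKO range. Its change under STZ was 0.80 ± 0.23 (adjusted p = 0.0414). Under STZ, Klhl23 lost its call without library 1, 2, 4, 8, 9, 10, 12, 14, 15, 17 or 21 (adjusted p up to 0.115) and Klhl29 without library 3, 4, 7, 9, 10, 11, 14, 15, 16, 18 or 21 (adjusted p up to 0.106). The averaged call of Klhl23 was lost without library 1, 4, 5, 8, 9, 12, 13, 14, 15, 16 or 21 (adjusted p up to 0.0908).

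Klhl41, Klhl40, Klhl30 and Klhl15 were not called by edgeR in any contrast. Klhl41 ran from 750 to 1196 CPM in STZ TKO (median 1043), with 900, 902, 912, 995 and 1183 in STZ floxed, from 644 to 1081 in TKO (median 946), and 845, 847, 862 and 986 in floxed libraries. The groups overlapped throughout. Klhl40 ran from 127 to 251 CPM in STZ TKO (median 188), against 200, 224, 245, 247 and 950 in STZ floxed, and from 178 to 324 in TKO (median 268), against 183, 256, 264 and 266 in floxed libraries. The value of 950 belonged to library 17. With it the log2 fold change under STZ was -0.99 ± 0.33 (adjusted p = 0.0815), and without it -0.29 (adjusted p = 0.519). DESeq2, with all libraries, called Klhl40 lower under STZ (adjusted p = 0.0409). Klhl30 averaged 84.2 ± 15.1 CPM in STZ TKO, 126 ± 109 in STZ floxed, 83.7 ± 22.3 in TKO and 87.6 ± 10.5 in floxed muscle, with library 17 at 321. Klhl15, a receptor for a regulatory subunit of the phosphatase PP2A, averaged 4.29 ± 1.37 CPM in STZ TKO, 6.02 ± 3.59 in STZ floxed, 2.30 ± 1.13 in TKO and 3.74 ± 1.36 in floxed muscle.

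**Figure D5:**
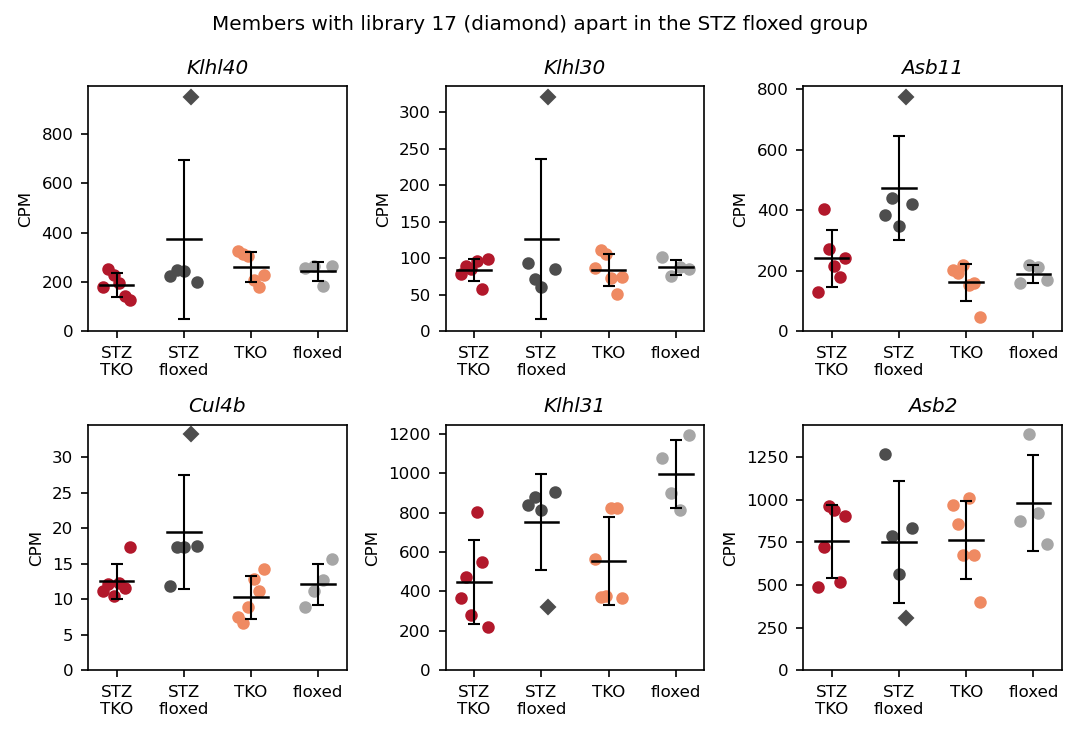
CPM of 6 members in each library of the 4 groups, with bars for mean ± SD and library 17 of STZ floxed drawn as a diamond. It lies above the other 4 STZ floxed libraries for Klhl40 (950), Klhl30 (321), Asb11 (775) and Cul4b (33.2), and below them for Klhl31 (320) and Asb2 (308).

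Complete separation of the groups was also counted, without a model. In TKO against floxed muscle 12 of 97 members lay lower without overlap (12.4%, against 2.61% of all genes tested) and 1, Fbxl2, higher (1.03%, against 2.35%). In STZ TKO against STZ floxed muscle 7 lay lower (7.22%, against 2.24%) and 1 higher (1.03%, against 1.51%). The member higher was Fbxl19, named after its values were seen, at 3.07 to 5.98 CPM in STZ TKO and 1.99 to 3.06 in STZ floxed libraries. Lower without overlap in both STZ states were 5 members (5.15%, against 0.806% of all genes): Klhl8, Asb16, Fbxl4, Asb4 and Klhl33.

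The STZ comparisons asked whether diabetes moved these genes in floxed and in knockout muscle. No member was called in STZ floxed against floxed muscle, where 1.35% of all genes were, with 9 members at an unadjusted p under 0.05 (9.28%, against 14.4% of all genes) and 3 called by DESeq2 (Klhl23, Klhl5 and Asb11; 3.09%, against 3.36%). In STZ TKO against TKO muscle again no member was called, against 0.142% of all genes, with 10 at an unadjusted p under 0.05 (10.3%, against 11.3%) and 1 called by DESeq2 (Klhl33; 1.03%, against 0.878%). In both STZ comparisons the members' shares lay near or below those of all genes. The interaction, the difference between the STZ effects in knockout and floxed muscle, was called for no member by either tool, against 0.0079% of all genes in edgeR and 0.0316% in DESeq2, with 5 members at an unadjusted p under 0.05 (5.15%, against 3.89%).

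The member nearest to a call in floxed muscle was Asb11, whose zebrafish relative maintains Notch signalling in progenitor cells. It had 349, 384, 419, 440 and 775 CPM in STZ floxed libraries, against 159, 169, 211 and 219 in floxed ones, and 129 to 405 in STZ TKO (median 229), against 47.0 to 217 in TKO libraries (median 176). All STZ floxed libraries exceeded all floxed ones, and the knockout groups overlapped. The log2 fold change was 1.32 ± 0.35 for STZ in floxed muscle (adjusted p = 0.0624) and -0.98 ± 0.31 for the knockout under STZ (adjusted p = 0.0694), and these comparisons share the STZ floxed libraries. Without library 17 the adjusted p values were 0.174 and 0.197. Other settings passed the threshold: for STZ in floxed muscle DESeq2 (adjusted p = 0.00984), the library code run as a block (0.0399), the macrophage covariate (0.0201) and the fit without libraries 4, 15, 16 and 20 (0.00836), and for the knockout under STZ DESeq2 (0.0343) and the block (0.017). Klhl23 lay on the other side, at 6.35 to 29.6 CPM in STZ floxed and 29.7 to 59.8 in floxed libraries (-1.21 ± 0.34, adjusted p = 0.0747). In floxed muscle 4 members lay higher under STZ without overlap (Fbxl20, Asb11, Fbxo38 and Klhl5), or 4.12% against 3.62% of all genes. Lower were 2 (Fbxl17 and Klhl23), or 2.06% against 5.17%. Klhl5, Fbxl20, Fbxo38 and Fbxl17 were named after their values were seen. In the knockouts no member separated STZ TKO from TKO libraries, against 0.624% of all genes.

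Partners of these receptors were examined as lists. None of 13 core and RING partners of the cullins (Skp1, elongins, Rbx1 and others) and none of 24 neddylation and COP9 signalosome genes, which switch cullins on and off, was called in any contrast. Of 47 tested receptors outside the rule, 2 were lower in STZ TKO muscle and in the average: Tnfaip1, a Cul3 receptor for RhoA (-0.56 ± 0.15, adjusted p = 0.0326 under STZ), and Dcaf6, a receptor of the Cul4 type (-0.66 ± 0.18, adjusted p = 0.0369 under STZ). Their averaged changes were -0.42 ± 0.11 (adjusted p = 0.0164) and -0.48 ± 0.13 (adjusted p = 0.021). Of all genes tested, 2.42% were lower under STZ and 4.23% in the average, so that 2 of 47 was near the share in the average. Of 11 known substrates or partners of muscle receptors, 1 was called: Nrap, a myofibril assembly protein that Klhl41 acts on, was lower under STZ (-1.22 ± 0.24, adjusted p = 0.00345) and in the average (-0.95 ± 0.17, adjusted p = 0.00094).

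Markers of other cells moved with the knockout. Of 14 macrophage markers, 2 were higher in TKO against floxed, 6 in STZ TKO against STZ floxed and 12 in the averaged comparison, and none of the markers was at 0 in a whole group. With the mean macrophage marker level of each library as a covariate, the calls among members numbered 0 without STZ, 2 under STZ (Fbxl4 and Klhl33) and 1 in the average (Klhl33), while the calls over all genes numbered 19 without STZ, 242 under STZ and 131 in the average, against 65, 619 and 1240 without the covariate. This covariate differs between the genotypes. Without libraries 4, 15, 16 and 20, members called numbered 0 without STZ, 7 under STZ (the lowered ones named above) and 9 in the average (Fbxl4, Klhl21, Klhl8, Asb4, Asb5, Asb16, Klhl33, Klhl38 and Fbxl22). Library 6, close to library 16 in macrophage marker level, stayed in that fit. Of 15 denervation and acetylcholine receptor genes, 1 was higher under STZ (Dok7) and 7 in the average, and their sums ran from 239 to 899 CPM in STZ TKO, 272 to 453 in STZ floxed, 246 to 2196 in TKO and 205 to 349 in floxed libraries. None was at 0 in a whole group, and their part in the result was not tested. Of 10 fibroblast markers, Col3a1 was higher under STZ, Col3a1 and Mfap5 were higher in the average, and Col1a1 and Col1a2 were lower with STZ in floxed muscle. In the average, the endothelial marker Tie1 and the adipocyte marker Plin1 were lower, 1 of 10 and 1 of 7. No slow fibre marker (8) or satellite cell marker (5 tested) was called in a contrast, nor was the 1 lymphocyte marker tested, and the part of these cells in the result was not tested.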

How the data were processed

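Whole-muscle RNA from 21 libraries was analysed from the deposited table of read counts per Ensembl gene, which holds whole numbers that the authors left without normalization. Per the labels' protocols, RNA was extracted with Trizol and libraries were made with a directional kit, and the submitters' processing notes name STAR, featureCounts and the build GRCm38.p4. Versions, annotation, strand setting and treatment of multi-mapping reads are, in the sources used here, not given, so that near-identical genes can lose or share reads and antisense pairs may be mixed. Symbols, coordinates and exon lengths came from GENCODE mouse release M21 (GRCm38), which matched 45229 of 46071 identifiers, and the rest held 0.0478% of counts.

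Groups were taken from the genotype and drug labels. Genes were filtered by filterByExpr (12658 kept), scaled by TMM (factors 0.862 to 1.35) and fitted in edgeR 4.0.16 (R 4.3.3) by robust quasi-likelihood, with 1 mean per group over all 21 libraries and a biological coefficient of variation of 0.325. Tested were 6 contrasts: the knockout effect without STZ, under STZ and averaged, the STZ effect in floxed and in knockout muscle, and the interaction. Tests were two-sided with Benjamini-Hochberg adjustment over all genes tested, and the SE of a log2 fold change is its size divided by the square root of the F statistic. Depth ran from 2951290 to 7687823 counts, which leaves members of few counts with wide errors.

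Alternatives were RLE size factors, DESeq2 1.42.0, no filter, the run of consecutive library codes as a block (not called batches in the labels), the macrophage marker level as a covariate, and leaving out libraries 17 and 18, libraries 4, 15, 16 and 20, or each library in turn. Named members were those past the threshold in a contrast, those known for muscle, every cullin, the 3 highest per length in each of the F-box, Asb and Klhl families and, in each contrast other than the interaction, the 2 highest and 2 lowest fold changes among members whose mean log2 CPM reached 2 (prior count 2). One member is in the counts but is not reported here. The members and lists were chosen with earlier results of these data known. Promoters came from RefSeq (GRCm38.p6), where Klhl38, Klhl8 and Klhl24 had no entry.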

Additional observations from a re-analysis of the deposited data

Results flagged for a closer look

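For the 39 named and tested members, each group of libraries was examined for 1 library far from the rest, as a gap to its nearest neighbour above Dixon's critical value. Of 156 groups of libraries 15 had one (9.62%), and library 17 of STZ floxed accounted for 7. The same libraries recur for each of the 39 genes, and some genes were named for extreme fold changes. The share therefore has no chance rate to be set against.

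In library 17 Klhl40 had 950 CPM, against 200 to 247 in the other 4 STZ floxed libraries, and Klhl30 had 321 CPM, against 60.8 to 93.1. Asb11 had 775 CPM there, against 349 to 440, and Klhl15 had 12.3, against 3.50 to 5.32. Both Cul4 scaffolds were high, Cul4a with 203 CPM against 123 to 136 and Cul4b with 33.2 against 11.8 to 17.5. Klhl31 was low, with 320 CPM against 813 to 907.

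Among STZ TKO libraries, number 18 had 17.4 CPM of Cul4b, against 10.5 to 12.3 in the others. Library 8 of that group had 19.1 CPM of Cul9, against 41.6 to 50.5, and 89.3 of Fbxw11, against 116 to 125. Among TKO libraries, number 20 had 40.9 CPM of Cul7, against 8.03 to 18.0, and 7.52 of Fbxl2, against 1.56 to 2.68. Library 6 of TKO had 83.5 CPM of Cul4a, against 126 to 141. Among floxed libraries, number 9 had 183 CPM of Klhl40, against 256 to 266, and number 19 had 986 of Klhl41, against 845 to 862.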

How the results depend on the processing

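No paired analysis was possible because the title numbers are unique to each library, so that no number joins libraries of different groups. Runs of consecutive library codes do span the groups, and with the run as a block calls over all genes numbered 1068 under STZ, against 619 without the block, and 1796 in the average, against 1240. Among members the block gave 11 calls under STZ, adding Asb11 and Klhl24, and 20 in the average, adding Asb11, Cul4b and Fbxl19 and losing Klhl31. The sign of change was followed over the settings for 28 calls and 7 uncalled changes chosen from those printed, and none of these reversed. Of their alternative values, 833 kept direction and side of the threshold, 118 lost a call and 29 gained one. Other changes of named members, including those near 0, were not followed. Without STZ, where 1 member was called, DESeq2 called 7 (351 of all genes, against 65 in edgeR), the fit without libraries 17 and 18 called 3 (123 of all genes), and 0 were called with the macrophage covariate (19 of all genes) or without libraries 4, 15, 16 and 20 (40); leaving out 1 library gave 0 to 3, with 0 without library 2, 3, 5, 6, 9, 10, 19 or 20, 2 without 8, 12 or 18 and 3 without 13 or 17. Under STZ, where 9 were called, the macrophage covariate left 2 (242 of all genes, against 619), and leaving out 1 library gave 7 to 10. In the average, where 18 were called, the covariate left 1 (131 of all genes, against 1240), the fit without libraries 4, 15, 16 and 20 left 9 (549 of all genes), and leaving out 1 library gave 13 to 20. For STZ in floxed muscle, where 0 were called, DESeq2 called 3 (425 of all genes, against 171), and Asb11 was called with the library code run as a block (245), with the macrophage covariate (300) and without libraries 4, 15, 16 and 20 (217), 1 member in each; leaving out 1 library gave 0 to 2 (2 without library 3, and 1 without 4, 8, 18 or 20). With 1 library left out, calls over all genes numbered 33 to 105 without STZ, 384 to 785 under STZ and 929 to 1405 in the average. In the same fits they numbered 31 to 333 for STZ in floxed muscle. For STZ in knockouts DESeq2 called 1 (111 of all genes, against 18). The cause was not tested. Klhl31 lost its averaged call with the block (adjusted p = 0.0606), and without a filter the averaged calls of Klhl23 (0.0564), Fbxo9 (0.0756) and Asb14 (0.0827) were lost, as were the calls under STZ of Klhl23 (0.063) and Klhl29 (0.147) and that of Fbxl4 without STZ (0.0631), with more genes tested. Members at a few CPM, such as Fbxl2, rest on few counts.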

Other observations

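The untested members were mostly F-box genes. Of the 23 Fbxw genes, 15 were not tested, and 14 of these lie on chromosome 9 and had at most 1 count in a library and at most 2 in all 21 libraries together. The 15th, Fbxw10 on chromosome 11, had 77 counts in all. These genes were named after their values were seen, and their symbols form a numbered run of related copies; the treatment of reads mapping to several places is not given in the sources used here. Fbxo5, an inhibitor of the anaphase-promoting complex in dividing cells, was the untested member with the highest count in a library, 17 in a TKO library.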
